A study of Drosophila melanogaster with 3 samples.

Results

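The genes described here encode the subunits of the mitochondrial oxidative phosphorylation machinery that the nucleus supplies in Drosophila melanogaster. They were chosen by symbol from the protein-coding genes of the Ensembl annotation of the BDGP6 assembly, with the prefixes ND-, UQCR-, COX, ATPsyn and Sdh. The rule found 71 of 13945 genes on the nuclear chromosome arms, of which 34 belong to complex I, 4 to complex II, 9 to complex III, 9 to complex IV and 15 to ATP synthase. They lie on 2L (11 genes), 2R (14), 3L (17), 3R (17), 4 (2) and X (10). Binding was measured by chromatin immunoprecipitation and sequencing (ChIP-seq) in whole embryos of mixed sex, 0 to 24 hours old, from transgenic flies stably expressing chif-RA, an isoform of chif (chiffon), with GFP at its C terminus. The antibody was directed against GFP, and the group comprised 3 biological replicates. No library from untagged flies and no input library was analysed here, so the background of the antibody is not known at any gene below. Whole embryos mix all cell types and all ages of the collection, and a region bound in few cells cannot be told apart from one bound weakly in many.

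Oxidative phosphorylation passes electrons from NADH through complex I, or from succinate through complex II, to ubiquinone, and then through complex III and cytochrome c to oxygen at complex IV. Complexes I, III and IV move protons across the inner mitochondrial membrane, and ATP synthase makes ATP as the protons return. A few core subunits are encoded by mitochondrial DNA and all others by nuclear genes, whose products are imported. The chif gene has a product related to Dbf4, which activates the DNA replication kinase Cdc7, and a product that binds the histone acetyltransferase Gcn5. The labels place GFP at the C terminus of chif-RA and do not say which of these products carries it.

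The binding data are region lists that the authors deposited. The IDR list holds the 3684 regions that passed their test of reproducibility between replicates (irreproducible discovery rate), with a median width of 396 bp. The pooled list holds 25066 regions, and the list of each replicate holds 30000, which include background by the authors' own description. Each region has a summit, its position of highest signal, and a signal value, the authors' score with no stated scale, used here only to describe and rank regions within a list. A gene was counted where any of its annotated starts had a summit at most 500 bp away. The sequences under 5 IDR summits and 1 lower-ranked summit are shown first, because they are the stretches of DNA that the counts below refer to. Each is the part of the 201 bp window around the summit that lies outside annotated exons, in dm6, 5′ to 3′ on the strand of the named gene. Capitals mark matches to the searched motifs, which were motif 7 (CANCNCTA) and the GAGA element (GAGAG, here read from the other strand) for COX6B, and the NRG element in its spelling TTATATAA for ND-SGDH. The windows of ND-ASHI (chrX:6679258-6679458, minus strand), COX6B (chrX:19744336-19744430, minus), ND-SGDH (chr3L:12138605-12138805, minus), COX7B (chr3L:17425295-17425476, plus) and SdhC (chr3R:11209850-11210048, minus) came from the IDR list. The window of ATPsynCF6 (chr3R:23356107-23356277, minus) came from the pooled list and belongs to a gene just under the IDR list by signal value, whose GC content was the lowest of the 34 genes with a pooled region only.
ND-ASHI: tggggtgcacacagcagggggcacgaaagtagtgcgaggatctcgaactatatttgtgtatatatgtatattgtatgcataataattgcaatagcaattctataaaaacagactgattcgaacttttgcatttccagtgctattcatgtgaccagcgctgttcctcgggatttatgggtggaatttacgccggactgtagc
COX6B: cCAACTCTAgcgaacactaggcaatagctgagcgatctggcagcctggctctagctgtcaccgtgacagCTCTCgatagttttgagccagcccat
ND-SGDH: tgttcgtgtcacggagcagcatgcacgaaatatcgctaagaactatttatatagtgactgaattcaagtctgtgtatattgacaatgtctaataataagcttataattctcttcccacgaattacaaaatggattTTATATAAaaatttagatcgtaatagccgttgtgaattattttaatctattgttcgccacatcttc
COX7B: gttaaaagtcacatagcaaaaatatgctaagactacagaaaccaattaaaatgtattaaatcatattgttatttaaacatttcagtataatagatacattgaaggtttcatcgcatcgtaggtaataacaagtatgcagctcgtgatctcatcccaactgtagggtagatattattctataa
SdhC: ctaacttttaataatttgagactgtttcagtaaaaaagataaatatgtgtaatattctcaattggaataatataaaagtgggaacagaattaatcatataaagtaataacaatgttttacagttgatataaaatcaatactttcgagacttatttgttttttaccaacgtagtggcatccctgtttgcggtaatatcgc
ATPsynCF6: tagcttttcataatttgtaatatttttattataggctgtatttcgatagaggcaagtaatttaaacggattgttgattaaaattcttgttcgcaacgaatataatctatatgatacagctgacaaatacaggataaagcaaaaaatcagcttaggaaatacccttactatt
The printed part of the COX6B window had a GC content of 54.7%, while ND-ASHI had 42.3% and the other 4 lay between 27.1% and 31.8%. In the printed parts, a match to a searched motif was present for COX6B and ND-SGDH and for none of the other 4. The full 201 bp window of COX7B also held a match to motif 1 (GTCACACT), in the exon part that is not printed.

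Of the 71 genes, 11 (15.5%) had an IDR summit at a start, where 15.0% of all protein-coding genes did. The share of the oxidative phosphorylation genes was thus close to the background. A pooled region was found at 45 of them (63.4%), against 45.1% of all genes. In the 3684 regions of highest signal value of each replicate, 11, 16 and 11 of the 71 genes were found in replicates 1, 2 and 3, against 14.2%, 15.3% and 14.4% of all genes. Their share over the replicates was 17.8% ± 4.07 (SD, n = 3), and that of all genes 14.6% ± 0.596 (SD, n = 3). Replicates 1 and 3 lay at 15.5% and replicate 2 at 22.5%. In all 3 replicates at once, 7 genes (9.86%) were found, against 9.72% of all genes. No test of these shares was made, because the genes are not replicates and the study has no second group.

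**Figure D1:**
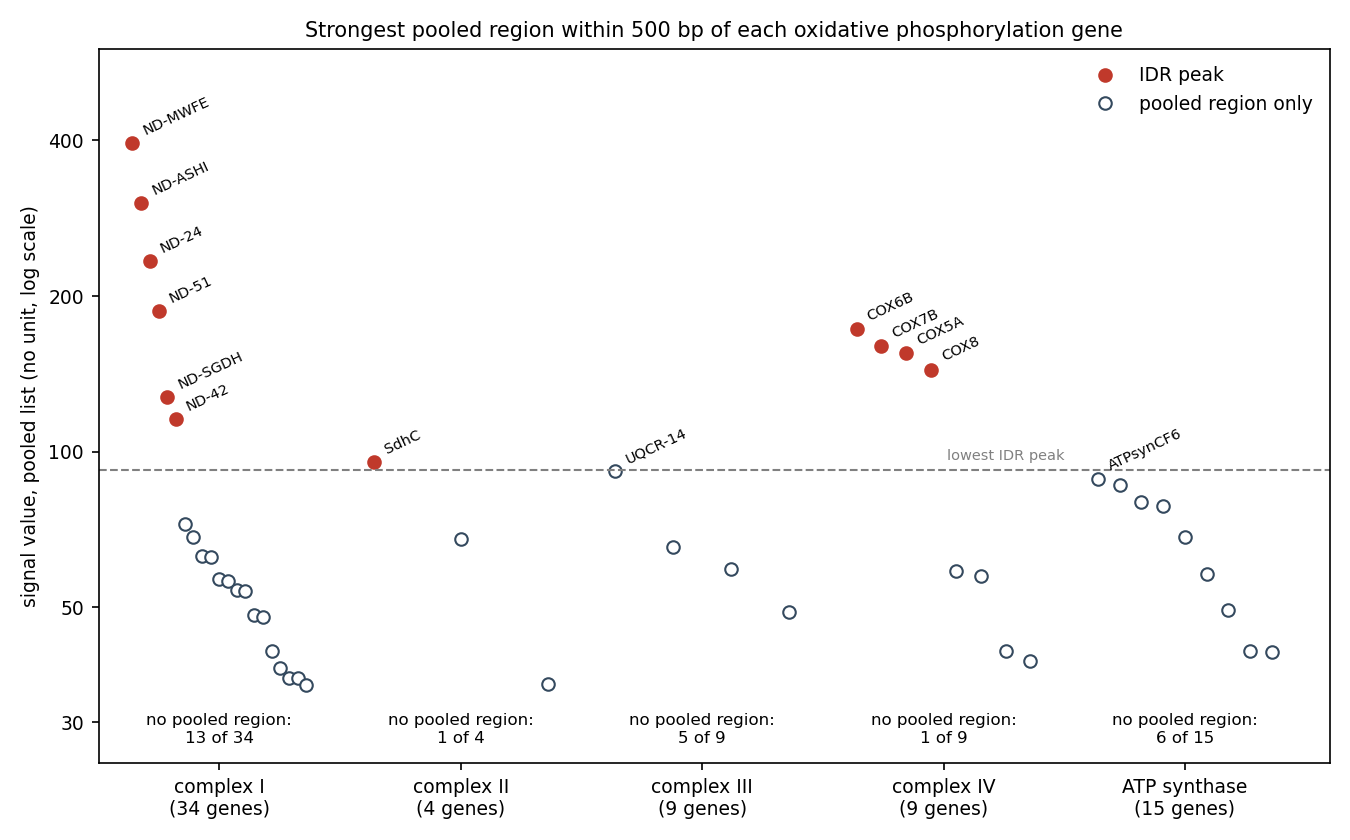
Signal value of the strongest pooled region within 500 bp of a start (vertical axis, log scale, no unit) for each gene, arranged by respiratory complex and by falling value within it. Filled points are genes with an IDR summit, open points genes with a pooled region only, and the dashed line is the lowest signal value in the IDR list (92.35). Complexes I and IV hold 10 of the 11 filled points, and 34 and 9 of the 71 genes.

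By the regions within 500 bp of their starts, the 71 genes fell into 4 classes. Besides the 11 with an IDR summit, 34 had a pooled region only, 14 had a region in at least 1 replicate list and none in the pooled list, and 12 (16.9%) had no region of any rank in any list. Among all protein-coding genes, 31.8% had no region in any list. Of the oxidative phosphorylation genes with a pooled region, 24.4% also had an IDR summit, against 33.3% for all genes. The IDR signal value over the 11 genes had a median of 160.2, near the 158.7 of all occupied genes. The plot of signal value by complex shows values that fall without a clear break across the lowest value of the IDR list, from ND-42 (115.9) and SdhC (95.73) above it to UQCR-14 (91.60) and ATPsynCF6 (88.69) below.

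Complex I, the NADH dehydrogenase, held 6 of the 11 genes with an IDR summit, out of 34. Its share of 17.6% was near the 15.0% of all genes. Its count was 6 in each replicate taken alone, and 5 genes were shared by all 3. Of the 7 genes counted as core subunits, which carry the electron path, 2 (28.6%) had an IDR summit. Of the 22 accessory subunits 4 (18.2%) did. ND-MWFE, an accessory subunit (FBgn0085468), had the strongest region of all members. Its signal value was 395.1, rank 230 in the IDR list, with a −log10 q of 3.60. Its region ranked 132, 403 and 356 in replicates 1, 2 and 3, with replicate signal values of 156.8, 117.5 and 113.6. It ranked above all other members in each replicate. The summit lay 164 bp upstream of the ND-MWFE start and 57 bp from that of TppII, a peptidase gene on the other strand.

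ND-ASHI, another accessory subunit (FBgn0029888), followed at a signal value of 302.1, rank 435. Its replicate ranks were 440, 620 and 379, all well inside the highest regions. The summit, in the first sequence printed above, lay in an annotated intron, 240 bp upstream of the nearest ND-ASHI start. It lay 282 bp upstream of the nearest start of Fum1, the citric acid cycle enzyme fumarase, and it was counted for both genes. ND-24 and ND-51 encode neighbouring subunits of the arm that takes electrons from NADH, and ND-51 binds NADH and the flavin. ND-24 (FBgn0030853) had a signal value of 233.4, rank 779, and replicate ranks of 1033, 481 and 1581. ND-51 (FBgn0031771) had 187.4, rank 1154, and replicate ranks of 996, 1017 and 2020. Both were among the highest regions of all 3 replicates. The other large subunit of that arm, ND-75, had no region in any list.

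The remaining complex I genes were weaker. ND-SGDH, an accessory subunit (FBgn0011455), had a signal value of 127.5, rank 2256, and replicate ranks of 2013, 1934 and 2996. ND-42, also accessory (FBgn0019957), had 115.9, rank 2611, and ranked 2039 and 1900 in replicates 1 and 2 but 9089 in replicate 3. The ND-42 region thus left the highest regions in replicate 3. Its summit lay 354 bp upstream of ND-42, the farthest of any occupied member and the nearest to the 500 bp limit, and 41 bp from Cchl, cytochrome c heme lyase, the enzyme that attaches heme to cytochrome c. Among complex I genes with a pooled region only, ND-20, a core iron-sulfur subunit, came first at 72.50, followed by ND-30 (68.36), also a core subunit, and ND-B17 (63.01).

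Complex IV, cytochrome c oxidase, had an IDR summit at 4 of 9 genes (44.4%, against 15.0% of all genes). It had a pooled region at 8 (88.9%, against 45.1%). In replicates 1, 2 and 3 it was found at 3, 4 and 3 genes (33.3%, 44.4% and 33.3%, against 14.2%, 15.3% and 14.4% of all genes). Of the 8 complex IV genes outside the symbol rule, described below, 1 (12.5%) had an IDR summit and 3 (37.5%) a pooled region. The 4 occupied genes of the 9 encode small nuclear subunits placed around the mitochondrially encoded core. COX6B (FBgn0031066) had a signal value of 173.0, rank 1343, and replicate ranks of 868, 1133 and 2163. COX5A (FBgn0019624) had 155.2, rank 1629, and replicate ranks of 1210, 1896 and 2117. Both were high in every replicate. COX7B (FBgn0040793) had 160.2, rank 1550, and ranked 3893 in replicate 1, just outside its 3684 highest regions, but 1162 and 1312 in replicates 2 and 3. COX8 (FBgn0263911) had 144.2, rank 1853, and ranked 1037 and 2401 in replicates 1 and 2 but 5264 in replicate 3. For both genes a single replicate stood apart from the other pair, and it was not the same replicate. COX4 had no pooled region, and COX5B (58.81), COX4L (57.42) and COX7C (41.16) had regions far below the IDR list.

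Complex II, succinate dehydrogenase, had 1 IDR summit among 4 genes, at SdhC (FBgn0037873), which encodes a membrane anchor subunit. The SdhC signal value of 95.73, rank 3482, was the lowest of the 11, with a −log10 q of 2.38. It ranked 2553 and 2201 in replicates 1 and 2 and 7235 in replicate 3. SdhD, the other membrane anchor, had a pooled region of 67.77, SdhB, the iron-sulfur subunit, had 35.49, and SdhA, the flavoprotein, had a region in the replicate 2 list alone. By signal value the membrane anchors stood above the catalytic subunits, but −log10 q was only 1.02 at SdhD and 0.0315 at SdhB. The SdhC summit also lay within 500 bp of the start of Tctp. A link of this order to the role of the subunits was not tested.

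Complex III, the cytochrome bc1 complex, had no IDR summit among 9 genes, where 15.0% of all genes had one. A pooled region was found at 4 (44.4%, against 45.1%). UQCR-14 came closest. Its signal value of 91.60, rank 3735, was just under the lowest IDR value of 92.35, and it ranked 3465 in replicate 2, 5212 in replicate 3 and was absent from the replicate 1 list. The other 3 pooled regions were at UQCR-6.4L (65.35), UQCR-C2 (59.24) and UQCR-C1 (48.97), the last pair being large matrix-facing subunits.

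ATP synthase had no IDR summit among 15 genes, although 9 had a pooled region. The strongest were ATPsynCF6 (88.69, rank 3922), a stalk subunit, ATPsynC (86.32, rank 4075), which forms the rotating ring in the membrane and ATPsynE (80.01), a membrane subunit. In the highest regions of replicates 1, 2 and 3, ATP synthase was found at 1, 4 and 2 genes. These were 6.67%, 26.7% and 13.3%, against 14.2%, 15.3% and 14.4% of all genes. The mean share was 15.6% ± 10.2 (SD, n = 3), near the 14.6% of all genes. No ATP synthase gene was found in all 3 replicates, where 9.72% of all genes were. ATPsynC ranked 17134, 3620 and 1294, ATPsynE ranked 2009 in replicate 1, was not listed in replicate 2 and ranked 8882 in replicate 3, and ATPsynbeta, the catalytic subunit, ranked 2849 and 8953 in replicates 2 and 3 and was not listed in replicate 1. The replicates therefore differed in which ATP synthase genes they ranked high. ATPsynCF6 ranked 7469, 3371 and 7367, ATPsynF, a membrane subunit, 17615, 3650 and 5912, and ATPsynB, of the outer stalk, 26416 and 3638 in replicates 2 and 3, with no region in replicate 1. Of the 60 genes without an IDR summit, 8 were among the highest regions of at least 1 replicate, 7 of them in 1 replicate and ATPsynC in 2, and 6 of the 8 belonged to ATP synthase. The other pair was UQCR-14 and the complex I accessory subunit gene ND-15, which ranked 6246 and 3400 in replicates 2 and 3 and was not listed in replicate 1.

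**Figure D2:**
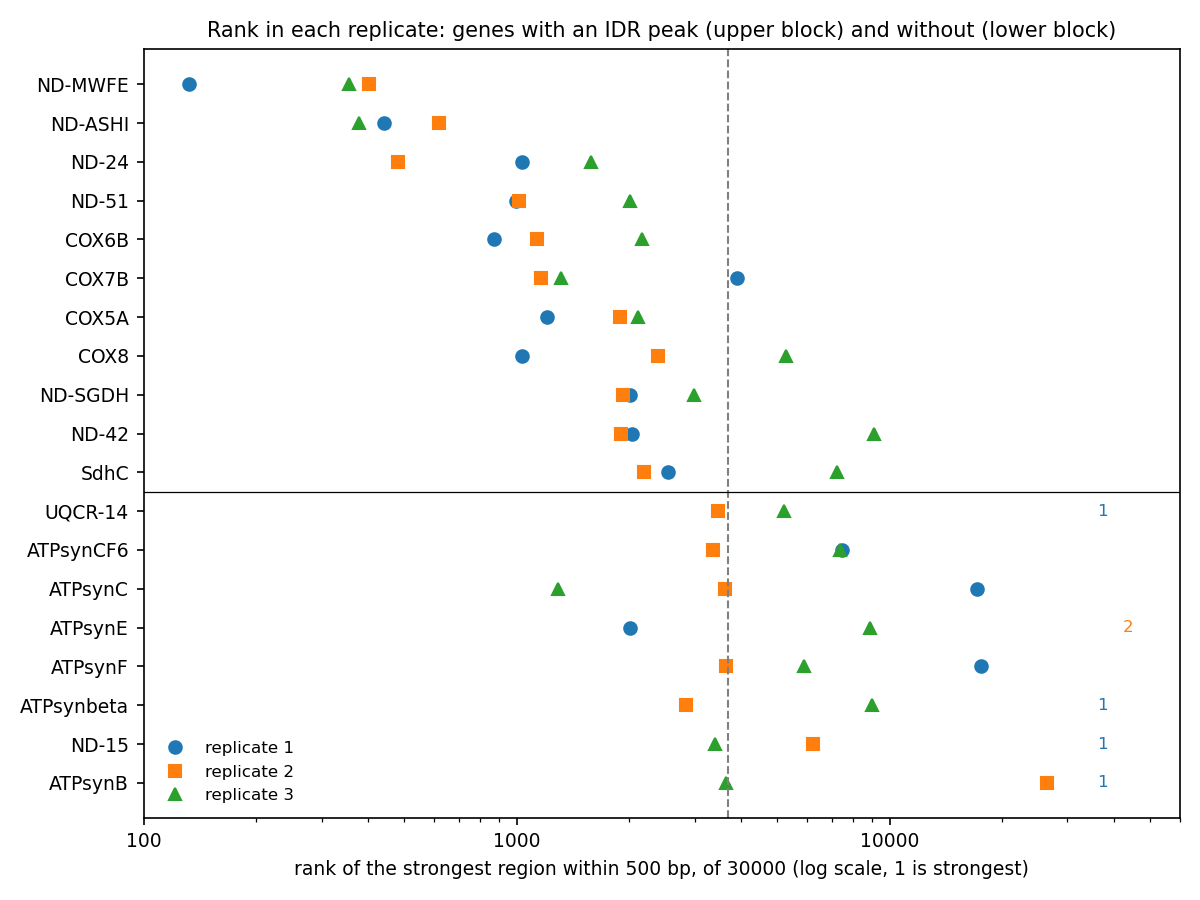
Rank of the strongest region within 500 bp (horizontal axis, log scale, rank 1 strongest of 30000) in replicates 1, 2 and 3 for the 11 genes with an IDR summit (upper block) and the 8 other genes among the highest regions of some replicate (lower block). The dashed line is rank 3684, and a digit at the right edge marks a gene absent from that replicate's list. Upper genes lie left of the line in at least 2 replicates, and 7 of them in all 3.

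The plot of replicate ranks sets these groups side by side. Among the 11 genes, 7 were left of the line in all 3 replicates and 4 in 2, COX7B missing in replicate 1 and COX8, ND-42 and SdhC in replicate 3. The strongest region of each replicate at these 11 genes overlapped the IDR region in every case. The replicate lists were not equally strict at the same rank, as −log10 q at rank 3684 was 0.735, 2.69 and 2.91 in replicates 1, 2 and 3. The part of this difference in the counts per replicate was not tested.

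The 12 genes with no region in any list were ND-75, ND-ACP, ND-B14, ND-MLRQ, ND-20L, ND-49L and ND-51L2 of complex I, UQCR-11, UQCR-11L and UQCR-14L of complex III, and ATPsyndelta and ATPsynepsilonL of ATP synthase. ND-ACP is the mitochondrial acyl carrier protein, and ATPsyndelta a subunit of the central stalk. The 14 genes seen in replicate lists alone were ND-PDSW, ND-B8, ND-51L1, ND-19, ND-49 and ND-18, SdhA, UQCR-6.4 and UQCR-Q, COX4, and ATPsynGL, ATPsynbetaL, ATPsynO and ATPsynD. None of these 14 was among the highest regions of any replicate, and the best rank was 5127, for ND-PDSW in replicate 3. As the depth of the libraries is unknown, absence from the lists does not show absence of binding.

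Genes whose symbol adds L to that of another subunit gene are paralogs, many of which are known in Drosophila for expression biased to the testis. The 71 genes include 13 such paralogs, counting ATPsynepsilonL, whose parent is annotated as sun. None had an IDR summit, where 15.0% of all genes did, and none was among the highest regions of any replicate. No region in any list was found at 6 (46.2%, against 31.8% of all genes). A pooled region was found at 4 (30.8%, against 45.1% of all genes). The 4 were UQCR-6.4L (65.35), COX4L (57.42), ATPsynCF6L (40.93) and ND-24L (38.26). Among the 58 genes without the suffix, 11 (19.0%) had an IDR summit and 41 (70.7%) a pooled region. ND-24 and ND-51 lay in the IDR list while ND-24L had a weak pooled region and ND-51L1 and ND-51L2 had none. At COX4 the order was the other way round, with a pooled region at the paralog and none at COX4.

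Head to head genes are those with an opposite-strand start of another protein-coding gene at most 500 bp from a start of theirs. Of the 71 genes, 37 (52.1%) were head to head, against 27.8% of all genes. All 11 genes with an IDR summit were in this class. They made up 29.7% of the 37, and 29.3% of all head to head genes in the genome had an IDR summit. Of the 34 other members none had one, where 9.52% of all genes that were not head to head did. The shares of head to head members in the highest regions of replicates 1, 2 and 3 were 29.7%, 37.8% and 24.3%, and those of the other members 0%, 5.88% and 5.88%. The head to head share was above the other in each replicate, at 30.6% ± 6.80 against 3.92% ± 3.40 (SD, n = 3). Of the 13 paralogs, 2 were head to head. Among all genes that were not head to head, 36.4% had a pooled region and 38.4% no region in any list. The paralogs, at 30.8% and 46.2%, lay near these shares. Without the paralogs, 35 members were head to head, of which 11 had an IDR summit, and 23 were not, of which none did. With a limit of 1000 bp between starts, 40 members were head to head, and they included the same count of 11.

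**Figure D3:**
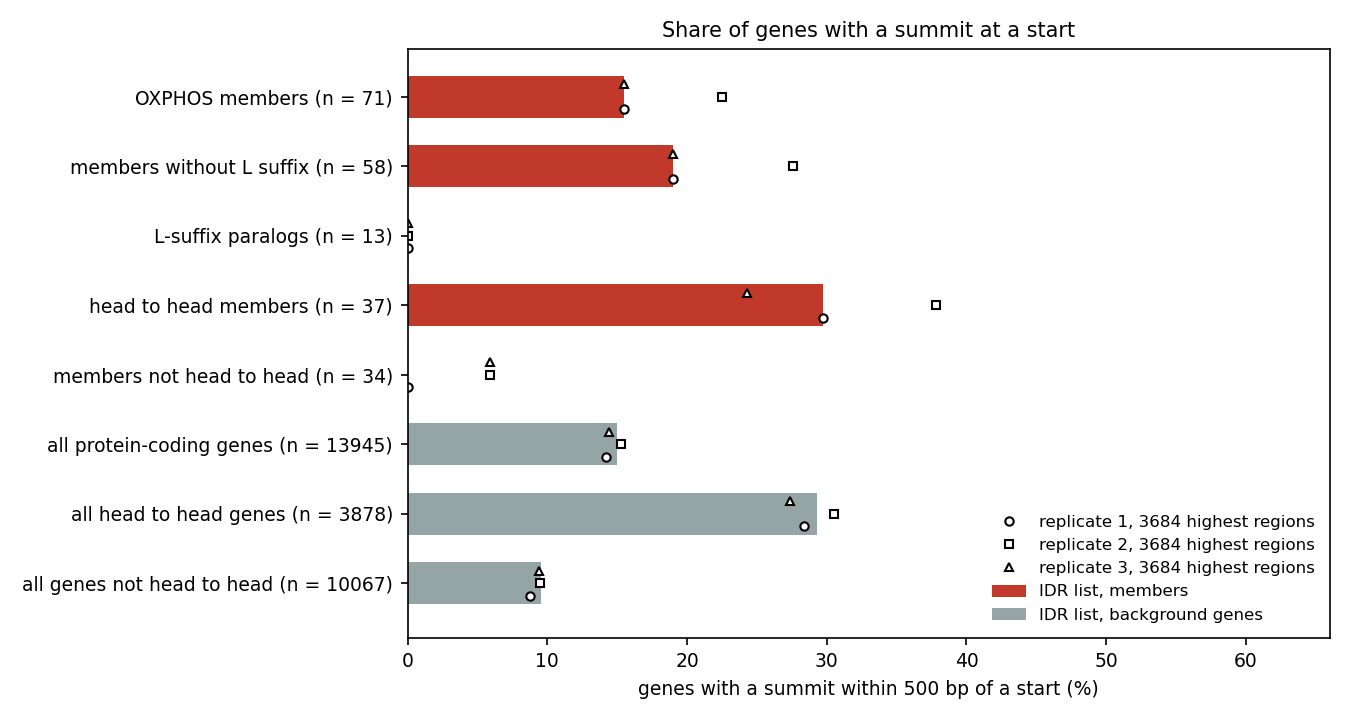
Share of genes with a summit within 500 bp of a start (horizontal axis, percent). Bars give the IDR list, for sets of oxidative phosphorylation (OXPHOS) genes (red) and for all protein-coding genes (grey), and open symbols give the 3684 highest regions of replicates 1, 2 and 3. Members that are head to head (29.7%) lie beside all head to head genes (29.3%), and no bar is drawn for the paralogs or the members not head to head, at 0%.

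The plot of shares shows the head to head members close to all head to head genes, and the 71 genes close to all genes. Complex IV had 7 of 9 genes head to head, complex I 18 of 34, ATP synthase 9 of 15, complex III 2 of 9 and complex II 1 of 4. The IDR share of complex IV was 44.4%, where 29.3% of all head to head genes had an IDR summit. The pairing alone did not sort occupied from other genes, as 26 of the 37 head to head members had no IDR summit. The distance between the nearest paired starts was alike in both, with a median of 229 bp (20 to 415) in the 11 and 214 bp (21 to 426) in 25 of the 26. The pair COX7C and oys was set aside because their 5′ ends overlap.

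At the pairs with an IDR summit, the 2 starts nearest to the summit point away from each other. This need not hold for other annotated starts of the same genes. COX5A has a further start on the other side of the summit, which lay in a 5′ UTR. In 10 of 11 the summit lay between the starts nearest to it, the exception being ND-24, whose summit lay 53 bp inside the gene, 95 bp from the start of corolla, a synaptonemal complex gene. The starts flanking the summit were 42 to 522 bp apart, with a median of 260 bp. The member had the nearer start in 7 pairs. In the other 4 the partner was nearer: TppII for ND-MWFE, CG13994 (113 bp, against 119) for ND-51, Cchl for ND-42, and the shared start of CG33932 and Rpp20 (22 bp, against 74) for COX6B. Rpp20 encodes an RNase P subunit, and CG18809 shares the COX6B start. The remaining partners were Sec3, an exocyst subunit (178 bp), glo, an RNA-binding protein (140 bp), VhaM9.7-b, a proton pump subunit (331 bp), RhoGAP68F (163 bp) and Tctp (299 bp). A summit cannot be assigned to 1 gene of such a pair from these lists.

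**Figure D4:**
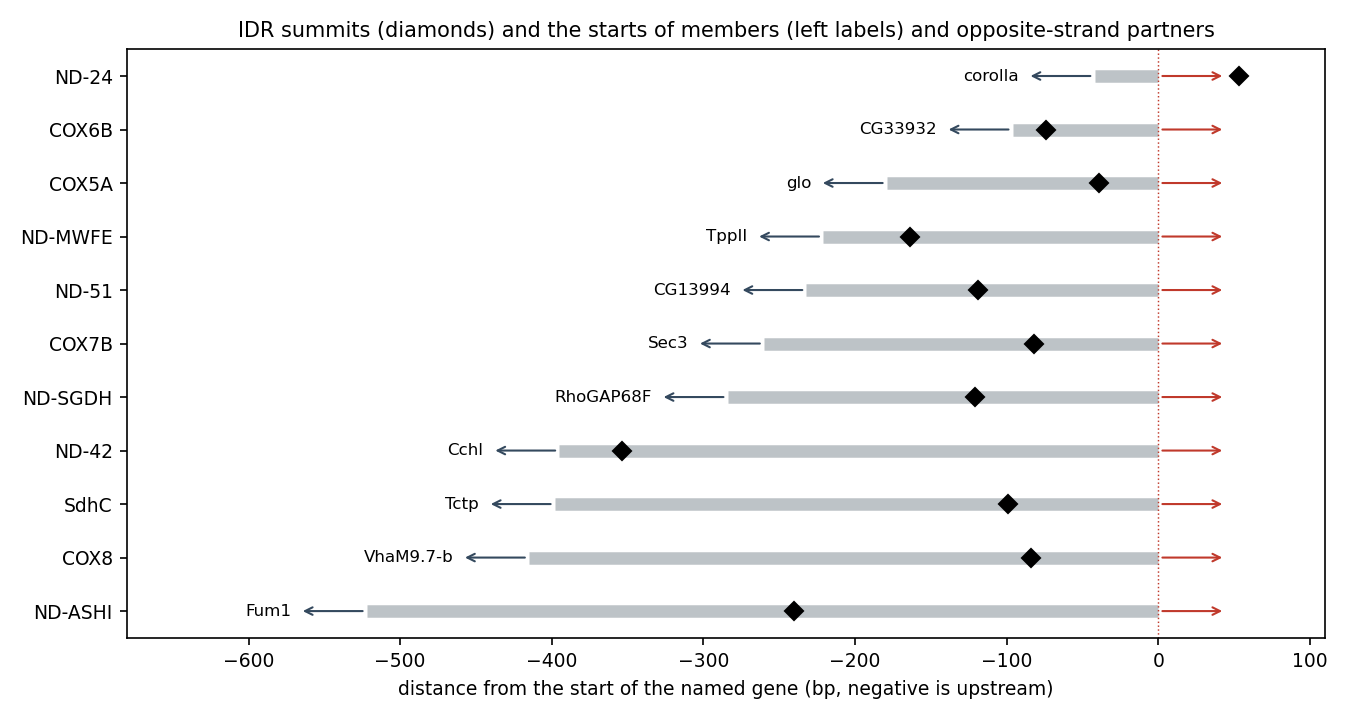
Position of the IDR summit (diamond) and of the start of the opposite-strand partner (left end of the grey bar, with its name) relative to the start of each of the 11 genes (0 on the horizontal axis, bp, negative is upstream). For gene and partner, the start nearest to the summit is drawn. Arrows show the direction of transcription. All diamonds lie on the grey bar between both starts except that of ND-24, at 53 bp downstream.

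The plot of summit positions shows summits on the upstream side of the nearest starts of the members. Measured from the nearest annotated start, the median offset over the 11 genes was −99 bp, and 10 of 11 (90.9%) lay upstream. All occupied genes had a median of −130 bp and 89.2% upstream. A summit upstream of the nearest start can lie downstream of another start of the same gene, as at COX5A. Of these summits 6 were intergenic, 3 in a 5′ UTR and 2 in an intron. The 34 pooled regions below the IDR list sat differently, with a median of −19 bp and 18 (52.9%) upstream. Over the whole pooled list the summits of all genes also lay closer to the start, with a median of −81 bp and 69.9% upstream. Of the summits of the 34, 12 lay in a 5′ UTR, 9 were intergenic, 8 in a coding exon and 5 in an intron. The GC content of the 201 bp windows was 34.3% in the median for the 11 and 42.0% for the 34. It was 36.3% for the IDR summits at other promoters, and pooled-only regions of other genes were not described in this way. The GC content thus differed between the 11 and the 34, as did the kind of sequence under the summits. GC content varied with the kind of sequence, as the 8 coding exon windows of the 34 ran from 49.3% to 62.7%. The 9 intergenic windows of the 34 ran from 27.9% to 43.3%, and the 6 of the 11 from 27.9% to 55.7%. Neither difference was tested for its part in which regions reached the IDR list. Just outside the 500 bp limit, the nearest IDR summits were 785 bp from ATPsynE and 924 bp from ATPsynCF6. In the pooled list, the summit at ATPsynCF6L lay 451 bp away, inside the limit, and those nearest to ATPsynD and ATPsynO lay 515 and 535 bp away, outside it.

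Promoters of 300 bp, from 250 bp before to 50 bp after the annotated start, were searched on both strands for short core promoter words. None of these words contains another. The DRE (TATCGATA), bound by the factor DREF, was in 0 of the 11 promoters with an IDR summit and in 7 of the other 60, those of COX4, COX7A, ND-19, ND-23, ND-B15, ND-MNLL and UQCR-14, where 8.94% of all promoters hold it. The core of motif 1 (GTCACACT), a housekeeping promoter word bound by M1BP, was in 3 of 11 and 12 of 60, and in 21.1% of all 71, against 6.45% of all promoters and 11.7% of those of head to head genes. Motif 1 was thus the word in which the 71 promoters lay farthest above all promoters in proportion, in both classes.

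Motif 7 (CANCNCTA) was in 5 of 11, namely ND-MWFE, COX8, COX5A, ND-42 and COX6B, and in 10 of 60, against 15.4% of all promoters, 24.9% of those of head to head genes and 27.5% of those with an IDR summit. The GAGA element (GAGAG) was in 2 of 11 and 11 of 60, against 30.2%. The NRG element, described in Drosophila upstream of nuclear genes for mitochondrial energy metabolism, was searched as TTACATAA, TTACGTAA, TTATATAA and TTATGTAA. It was in 2 of 11 (ND-SGDH and ND-42) and 3 of 60, against 5.13% of all promoters. The 13 paralogs held no DRE, motif 1, motif 7 or NRG match. These matches describe the letters in the window and were not tested against binding.

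Other genes of the pathway were taken from a list of subunits that the symbol rule misses, electron carriers, assembly factors, transporters, citric acid cycle enzymes, mitochondrial DNA expression and nuclear regulators. Of 107 listed symbols, 89 matched a gene outside the 71. An IDR summit was found at 18 of them (20.2%, against 15.0% of all genes) and a pooled region at 56 (62.9%, against 45.1%), and 11 (12.4%, against 9.72%) were among the highest regions of all 3 replicates. By class, the counts with an IDR summit were 4 of 13 for the citric acid cycle, 2 of 16 for assembly factors, 2 of 2 for cytochrome c, 1 of 14 for transport, 3 of 12 for mitochondrial DNA expression and 4 of 10 for nuclear regulators. The assembly factor class is incomplete, as 12 of its 28 listed symbols did not match the annotation. The mitochondrial DNA class includes Mtpalpha, an enzyme of fatty acid oxidation, which was 1 of its 3. Of the cytochrome c genes, Cyt-c-p had a signal value of 93.97, near the lowest of the IDR list (92.35). It ranked 5706, 4206 and 7937, outside the highest regions of every replicate. In the class listed as nuclear regulators, ERR and mask were among the highest regions of all 3 replicates. The others, sima and Rheb (a small GTPase), were so in 1 replicate each. CIA30, a complex I assembly factor, stood above every oxidative phosphorylation gene at 699.0, with replicate ranks of 44, 72 and 81. Cyt-c-d, a cytochrome c gene, had 403.5, but its summit lay 400 bp inside the gene and CG31808 was also in reach. Next came Fum1, through the summit it shares with ND-ASHI, then blw (255.8), the alpha subunit of ATP synthase, Idh3g (238.0), a subunit of isocitrate dehydrogenase, mask (224.8), mtSSB (214.1), which binds single-stranded mitochondrial DNA, and ERR (211.6), a nuclear receptor that regulates metabolic genes. All of these were among the highest regions of all 3 replicates. Other genes were also in reach of the summits at CIA30 (CG7601), Idh3g (CG4743), mask (Spase22-23) and ERR (Atg18a). At blw and mtSSB no other protein-coding gene was in reach. The subunits outside the symbol rule gave 2 IDR summits, at blw and levy (163.1, with wmd also in reach). The gene levy encodes a complex IV subunit and was named after its values were seen. The counts were 0 of 6 for complex I, 0 of 2 for complex II and 0 of 4 for complex III. They were 1 of 8 for complex IV and 1 of 2 for ATP synthase, where 15.0% of all genes had an IDR summit. The 12.5% of complex IV here lay below the 44.4% of the complex IV genes that the rule names. The gene blw ranked 580, 1046 and 469 in the replicates and was not head to head, so neither the count of 0 for ATP synthase nor the confinement to head to head genes extends beyond the genes that the symbol rule names. For scale, 15 of 73 mitochondrial ribosomal protein genes (20.5%) and 64 of 92 cytosolic ribosomal protein genes (69.6%) had an IDR summit.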

How the data were processed

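ChIP-seq region lists of 3 biological replicates of 1 group were used in the build dm6, and the dm3 lists were not used. The authors deposited, per region, a signal value (a score without stated scale), a −log10 q value and the offset of the summit in bp. Per the deposited file listings, the replicate lists are relaxed calls made as input for IDR, and the pooled list joins the replicates. The aligner, the caller and the threshold of IDR were not given in the sources used here. No read counts were used, so depth is unknown and no interval is given. Coordinates are dm6, 1-based, and 0 regions ended beyond a chromosome. Gene models were those of Ensembl release 115 (BDGP 6.54).

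Starts were the 5′ ends of all transcripts. Values were computed with Python 3.11.15, pandas 2.3.3 and numpy 2.4.6, and the counting scripts were tested on simulated data. The members, lists and motifs were chosen with earlier results of these data known. The genes named are those with an IDR summit and its nearest neighbours, up to 3 pooled-only genes per complex by signal, genes with no region, genes whose replicate and IDR calls differ, those nearest the 500 bp limit and up to 8 other pathway genes by signal; further names were added after their values were seen. The study has 1 group, so no test between samples was possible. Alternatives were other windows, list lengths and overlap rules, and each replicate left out. All columns used were mapped to the group.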

Additional observations from a re-analysis of the deposited data

How the results depend on the processing

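Of 46 alternative values, 34 stayed within 1.5 times the reported count or offset, or within 1 SD for the mean share, 12 moved beyond that and 0 reversed. Among the 34, members with a pooled region numbered 33 or 56 with a window of 250 or 1000 bp and 35 among the 12533 strongest regions, and complex I had 4 genes among the 1842 strongest IDR regions. The 11 genes with an IDR summit became 7 in the 1842 strongest IDR regions (8.63% of all genes), 7 with each summit given to its nearest start alone (11.2%), 7 where the region overlapped the highest regions of all 3 replicates (9.73%) and 7 where that overlap covered at least 50% of the region (9.47%). These settings are stricter by construction. The nearest start rule also lowered the 11 head to head genes to 7. Complex II fell from 1 to 0 among the 1842 strongest, and ATP synthase rose from 0 to 2 with a 1000 bp window (ATPsynE and ATPsynCF6). With the 2000 or 7500 highest regions per replicate, the mean share was 9.86% or 31.9% (all genes 9.07% or 23.3%) and the genes found in all 3 replicates numbered 3 or 11. The median offset was −53 bp in replicate 3. Leaving out each replicate in turn gave mean shares of 15.5% to 19.0% and 7 to 10 genes found in both others. No paired analysis was possible because the labels give 1 group. Unknown depth and the absence of a control library limit what absence of a region shows.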

Other observations

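Several head to head members without an IDR summit share their start region with genes of well known function. ND-PDSW starts 45 bp from msl-2, which encodes a subunit of the dosage compensation complex, and had no pooled region. UQCR-C1 starts 26 bp from CycC, a Mediator cyclin, and had a pooled region of 48.97. ND-23 starts 302 bp from spn-E, a germline piRNA pathway gene, and had a pooled region of 48.34. ATPsynD starts 95 bp from mRpL55, a mitochondrial ribosomal protein gene, and had no pooled region. These pairs were chosen after their values were seen.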
